A study of Mus musculus with 20 samples.

Results

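Osteopontin and its receptors were followed as 8 of the 20377 gene symbols in the count table of this series. They were Spp1, which encodes osteopontin, the hyaluronan receptor gene Cd44, the alpha integrin genes Itgav, Itga9 and Itga4, and the beta integrin genes Itgb1, Itgb3 and Itgb5. Members were taken by symbol, and where a symbol had several RefSeq transcripts the one with the largest total count was used. RNA had been sequenced from marrow of male 129S4 mice aged 4 months that had eaten oxymetholone, a synthetic androgen given for marrow failure, at 300 mg/kg of diet, or a placebo diet, for 3 months from weaning. KSL cells (cKit+ Sca1+ Lin-, the stem and progenitor fraction) came as 3 libraries each of Fancd2-/- mice on oxymetholone, Fancd2-/- mice on placebo, wild-type mice on oxymetholone and wild-type mice on placebo, each library a pool of 5 mice. Ter119+ CD71-high FSC-high erythroblasts came as 3 libraries of wild-type mice on oxymetholone and 3 on placebo, each from 1 mouse, and whole marrow as 1 combined library of 5 mice for Fancd2-/- and 1 for wild-type, both on placebo. Fancd2 encodes a protein of the Fanconi anaemia DNA repair pathway, and the labels give the mutant only as Fancd2-/-, with no tissue limit to the deletion. The title of the series names osteopontin transcription as the subject, so the question put to these genes was how ligand and receptor RNA differed with the drug, the genotype and the cell population.

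Osteopontin is a secreted, heavily phosphorylated glycoprotein made by osteoblasts, osteoclasts, macrophages and other cells, and in marrow it is known as a component of the endosteal niche that limits the number of stem cells. Its RGD motif binds integrins that contain the alpha v subunit, with beta 3 or beta 5 as well as beta 1 as the partner. Cleavage by thrombin uncovers a second site that binds the alpha 9 beta 1 and alpha 4 beta 1 integrins, and CD44 is a further reported receptor. Integrin subunits reach the cell surface as pairs of 1 alpha and 1 beta chain, and most of these chains also serve other ligands: alpha 4 beta 1 binds VCAM-1 and fibronectin, and beta 3 pairs with alpha IIb (Itga2b) in platelets.

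The genes lie on 6 chromosomes of the mm9 build: Spp1 (NM_009263) at chr5:104864137-104870069 on the forward strand, Cd44 (NM_009851) at chr2:102651300-102741822 on the reverse strand, Itgav (NM_008402) at chr2:83564554-83647073, Itga9 (NM_133721) at chr9:118515827-118810121, Itga4 (NM_010576) at chr2:79095583-79173271, Itgb1 (NM_010578) at chr8:131209554-131257479, Itgb3 (NM_016780) at chr11:104469314-104531785 and Itgb5 (NM_001145884) at chr16:33829751-33949424, the last 6 on the forward strand. The promoters of the ligand gene and of Itga4 are shown, because these genes took opposite directions between the cell populations. Each line gives the 250 bases before the RefSeq start in GRCm38.p6, a later build than that of the counts, 5′ to 3′ on the coding strand, at chr5:104434861-104435110 for Spp1 (1 of 2 starts listed for it) and chr2:79255176-79255425 for Itga4. Capitals mark the motifs found among 6 searched on both strands: the RUNX core TGTGGT (here as its reverse complement ACCACA), the TATA box TATAAA, the GATA core GATAA, the steroid receptor half-site AGAACA, the FOXO site GTAAACA and the E-box CACGTG.
Spp1: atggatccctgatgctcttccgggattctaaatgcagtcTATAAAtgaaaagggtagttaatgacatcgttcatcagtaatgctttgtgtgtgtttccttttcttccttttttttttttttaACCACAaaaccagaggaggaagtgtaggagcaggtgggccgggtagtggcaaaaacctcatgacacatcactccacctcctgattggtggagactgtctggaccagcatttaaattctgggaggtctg
Itga4: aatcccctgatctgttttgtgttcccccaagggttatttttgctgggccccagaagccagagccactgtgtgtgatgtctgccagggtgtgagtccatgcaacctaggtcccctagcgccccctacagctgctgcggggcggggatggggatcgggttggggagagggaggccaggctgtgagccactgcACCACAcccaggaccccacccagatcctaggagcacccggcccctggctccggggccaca
The RUNX core stood 128 bases before the Spp1 start and 60 bases before the Itga4 start, and TATAAA stood 211 bases before the Spp1 start. Motifs were matched as sequences at any distance from the start, so this TATAAA is not placed as a working TATA box. The window before the second start listed for Spp1 (chr5:104435942-104436191 in GRCm38.p6) held GATAA 184 bases before that start and neither the RUNX core nor the TATA box. TGTGGT is in 14% and TATAAA in 12.4% of the 32851 mouse promoter windows of this length. Neither of the windows printed above held the GATA core (in 22.6% of windows), the steroid receptor half-site (16.1%), the FOXO site (3.17%) or the E-box (6.02%). Promoters were matched for 7 of the 8 genes, all but Itgb3.

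Counted reads per library numbered 17.2 M to 20.8 M for erythroblasts, 10.8 M to 121 M for KSL cells and, for whole marrow, 107 M in Fancd2-/- and 100 M in wild-type. Fancd2 itself lay at 6.57 to 8.63 CPM (counts scaled to library size) in the 6 Fancd2-/- KSL libraries, against 17.2 to 23.1 CPM in the 6 wild-type KSL libraries. The summed level of 15 erythroblast markers was 206089 to 243624 CPM in erythroblasts and 65.2 to 460 CPM in KSL cells. Kit lay at 294 to 787 CPM in KSL cells and at 0.498 to 1.84 CPM in erythroblasts. The summed level of 15 KSL markers did not separate the populations in that direction, at 3686 to 5461 CPM in KSL cells and 6227 to 7145 CPM in erythroblasts. Among them Tal1 and Gfi1b were higher in wild-type erythroblasts on placebo, by 4.21 and 4.34 on the log2 scale. The others, like Kit, were lower. Fancd2-/- placebo KSL replicate 3 stood apart: among the 12 KSL libraries it was highest for 19.4% of 11973 genes, and its counts fell with transcript length (slope of -0.218 log2 per doubling of length, against -0.0445 to 0.102 in the other KSL libraries). It is shown separately below, and results that rest on it are given with and without it. Nothing in the labels says whether libraries of a group came from separate sorting days, so p-values measure the spread between these pools or mice.

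**Figure D1:**
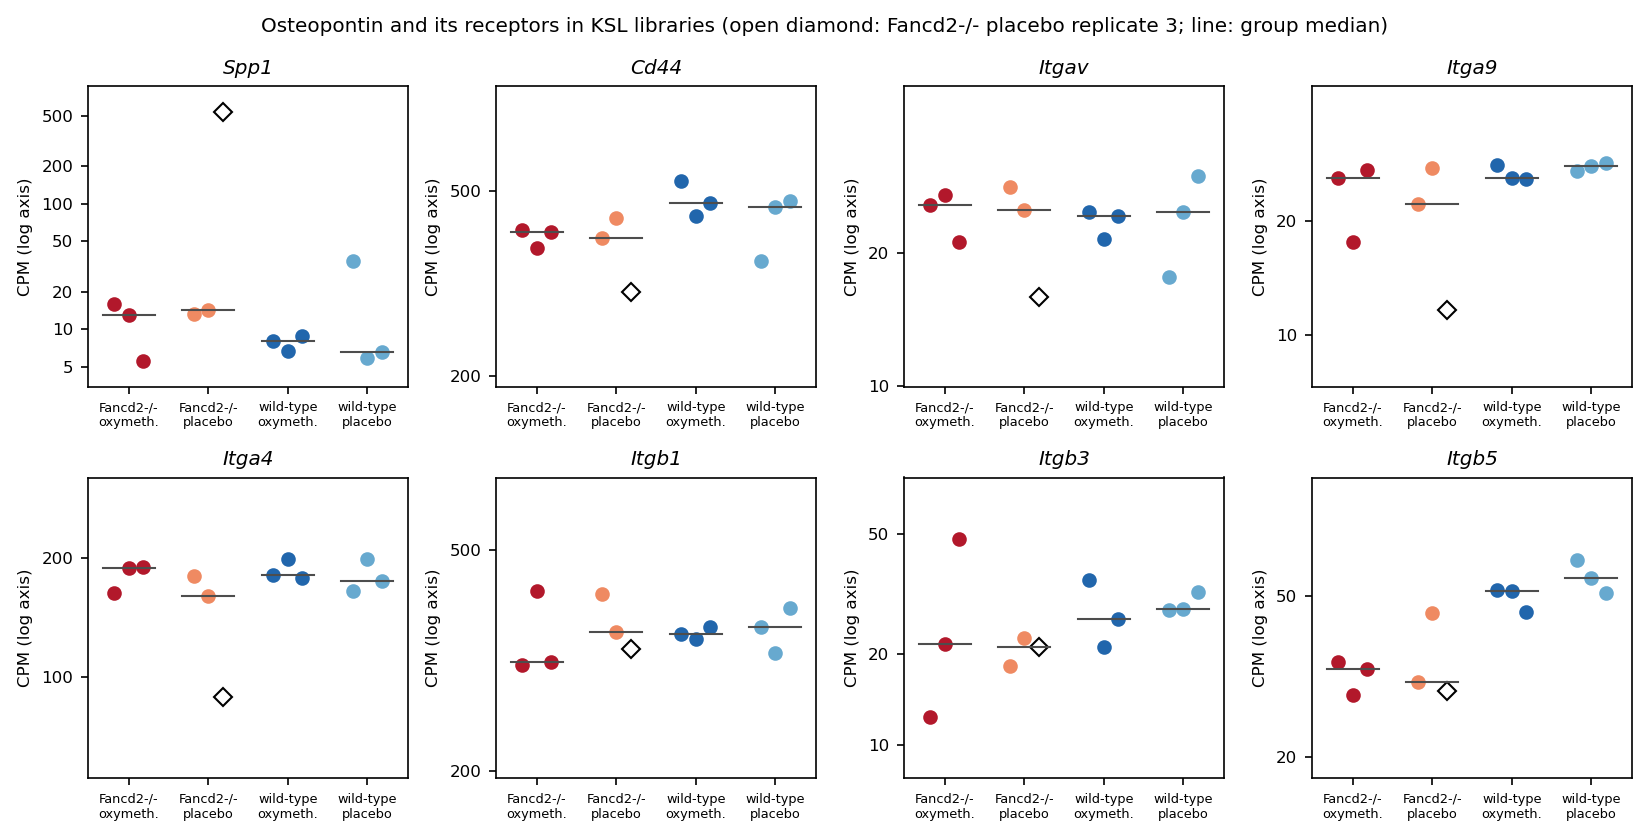
Level of each of the 8 genes (CPM, log axis) in the 12 KSL libraries, with the Fancd2-/- groups left of the wild-type groups and oxymetholone left of placebo. The line is the median of the 3 libraries of a group and the open diamond is Fancd2-/- placebo replicate 3, which had 538 CPM of Spp1 while every other library had 35.0 CPM or less; for Itgb5 all 6 Fancd2-/- libraries lie below all 6 wild-type libraries.

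Osteopontin RNA was low in most KSL libraries, and 1 library stood far above the rest. Spp1 was at 15.9, 12.9 and 5.59 CPM in Fancd2-/- KSL cells on oxymetholone, against 13.2, 14.2 and 538 CPM in Fancd2-/- KSL cells on placebo. In wild-type KSL cells it was at 8.10, 6.71 and 8.83 CPM on oxymetholone, against 35.0, 5.97 and 6.60 CPM on placebo. The 538 CPM belong to Fancd2-/- placebo replicate 3, and the next highest library was wild-type placebo replicate 1. The titles of both begin with QZ, which no other library has, their oxymetholone partners included. The labels do not say what this prefix stands for, and its part in the Spp1 levels was not tested. In their pairs prefix and diet cannot be told apart. The oxymetholone and placebo libraries overlapped in both genotypes.

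With the libraries compared in the pairs that shared a cytometer setting, Spp1 was lower on oxymetholone in 2 of 3 Fancd2-/- pairs and in 1 of 3 wild-type pairs. The edgeR estimate was -1.68 ± 1.96 (log2 ± SE) in Fancd2-/- cells, with an adjusted p of 0.814, and it was 0.086 without pair 3. Without the pair block it was -4.14, with an edgeR adjusted p of 0.863. In wild-type cells it was -0.55 ± 1.66, with an edgeR adjusted p of 0.999, and leaving out 1 pair at a time moved it between -1.01 and 0.28. The drug effect in Fancd2-/- minus that in wild-type cells was -1.12 ± 2.59 on the log2 scale, with an edgeR adjusted p of 0.972. The change of Spp1 with oxymetholone was thus smaller than the spread between pairs in either genotype, and it was positive once 1 pair was left out, pair 3 in Fancd2-/- and pair 1 in wild-type cells.

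**Figure D2:**
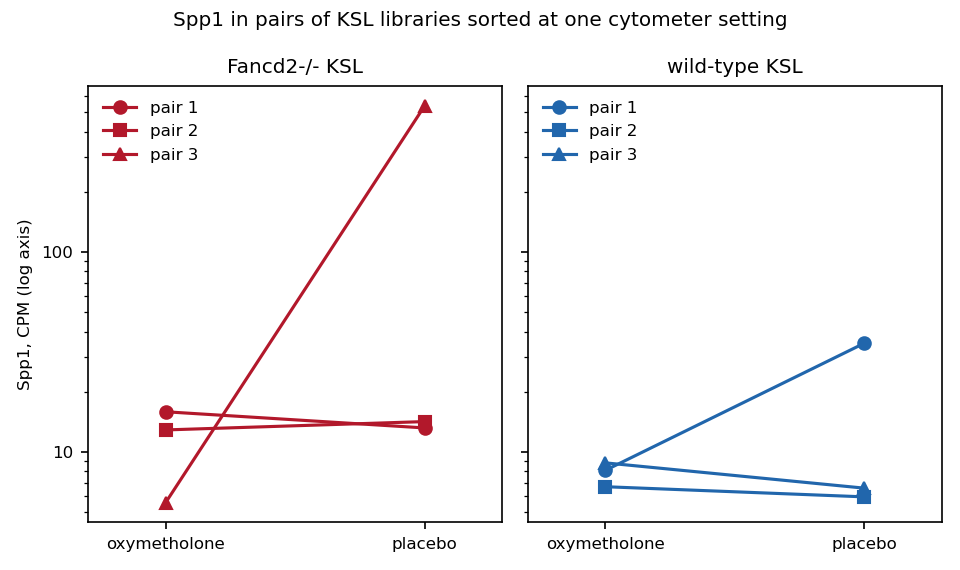
Spp1 (CPM, log axis) in the 6 pairs of KSL libraries, each line joining the oxymetholone library (left) and the placebo library (right) of a pair. The steep lines are Fancd2-/- pair 3 (5.59 CPM on oxymetholone and 538 CPM on placebo) and wild-type pair 1 (8.10 and 35.0 CPM); the other 4 lines are nearly flat.

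Between genotypes, Spp1 averaged 11.5 ± 5.30 CPM in Fancd2-/- and 7.88 ± 1.08 CPM in wild-type KSL cells on oxymetholone (SD, n = 3 each), a log2 difference of 0.52 ± 1.39 with an edgeR adjusted p of 0.999. On placebo the log2 difference was 3.64 ± 1.43 with an edgeR adjusted p of 0.211, and without Fancd2-/- placebo replicate 3 it was -0.20 with an adjusted p of 0.908. In that library some genes of mesenchymal and osteoblast cells were also high, but not all. Of 19 stromal and osteoblast markers 10 were highest there among the 12 KSL libraries, among them the collagen gene Col1a1 at 11.8 CPM, against 0.202 to 1.06 CPM elsewhere, and Sparc (osteonectin) at 42.5 CPM, against 4.73 to 12.6 CPM. Runx2, the osteoblast factor gene on the same list, was lowest there, at 77.2 CPM against 125 to 180 CPM in the other 11. Ibsp, at 0.504 CPM, lay within the range of the others (0.231 to 2.70 CPM). The summed level of the list did not stand out, at 321 CPM against 252 to 350 CPM in the other 11. Of 13 genes for other ligands of these receptors 6 were highest there, with fibronectin (Fn1) at 39.5 CPM against 1.18 to 5.38 CPM and tenascin C (Tnc) at 30.2 CPM against 0 to 1.55 CPM. Both counts stand beside 19.4% of the 11973 genes that were highest in this library. Wild-type placebo replicate 1, second highest for Spp1, exceeded the 10 remaining libraries in 7 of the 19 markers, with Col1a1 at 1.06 CPM, as it did for 14.9% of the 11973 genes. The part of these markers in the Spp1 level was not tested, and in bulk RNA fewer cells of a type cannot be told apart from less RNA per cell.

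The genes whose levels followed Spp1 most closely over the 12 KSL libraries were the transcription factor gene Sox2, with a Pearson r of 0.977 (log2 CPM), and Fst (follistatin) with 0.973. Next came the chemokine gene Ccl2 with 0.967, the metalloproteinase gene Mmp10 with 0.959 and the laminin gene Lamb1 with 0.953. These values rest on Fancd2-/- placebo replicate 3, which had 18.7 CPM of Sox2 against 0 to 0.889 CPM in the others and 35.9 CPM of Ccl2 against 0 to 2.72 CPM. Over the other 11 libraries the closest were Ccl2 (0.889), Sox2 (0.876), Ngfrap1 (0.874), 1110012L19Rik (0.874) and Jtb (0.871). The libraries fall into groups and pairs and differ in depth, from 10.8 M to 121 M counted reads, so the values describe these libraries and carry no p.

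Cd44 was, with Itgb1, the most abundant receptor RNA of KSL cells. It was at 413, 378 and 408 CPM in Fancd2-/- cells on oxymetholone, 397, 438 and 304 CPM in Fancd2-/- cells on placebo, 525, 441 and 472 CPM in wild-type cells on oxymetholone and 354, 463 and 476 CPM in wild-type cells on placebo. On oxymetholone every Fancd2-/- library lay below every wild-type library, and on placebo the genotypes overlapped. The log2 difference between genotypes was -0.26 ± 0.15 on oxymetholone, with an edgeR adjusted p of 0.999, and -0.15 on placebo.

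The alpha chains differed little between KSL groups. Itgav, the chain shared by the RGD-binding receptors, lay at 15.9 to 29.9 CPM in all 12 libraries, and Itga9 at 11.7 to 28.5 CPM. Itga4 was at 163, 188 and 189 CPM in Fancd2-/- cells on oxymetholone, 180, 160 and 89.0 CPM in Fancd2-/- cells on placebo, 181, 199 and 178 CPM in wild-type cells on oxymetholone and 165, 199 and 175 CPM in wild-type cells on placebo. The lowest values of Cd44, Itgav, Itga9 and Itga4 were all in Fancd2-/- placebo replicate 3, and groups overlapped for the 3 alpha chains in the other 11. Oxymetholone gave Itga4 a log2 difference of 0.38 ± 0.17 in Fancd2-/- cells, with an edgeR adjusted p of 0.688, and 0.074 without pair 3.

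Among the beta chains Itgb1, the partner of alpha 4 and alpha 9, lay at 311 to 422 CPM in every KSL library, with overlap between all 4 groups. Itgb3 was at 12.4, 21.6 and 47.9 CPM in Fancd2-/- cells on oxymetholone, 18.3, 22.6 and 21.0 CPM in Fancd2-/- cells on placebo, 35.1, 21.1 and 26.1 CPM in wild-type cells on oxymetholone and 28.0, 28.1 and 32.1 CPM in wild-type cells on placebo. On placebo the Fancd2-/- libraries lay below the wild-type libraries, with a log2 difference of -0.47 ± 0.34 and an edgeR adjusted p of 0.458. On oxymetholone the Fancd2-/- libraries spanned the wild-type ones. Itga2b, the platelet partner of beta 3, had its highest level (95 CPM) and its lowest level (37.1 CPM) of all KSL libraries in Fancd2-/- oxymetholone replicates 3 and 1, the libraries in which Itgb3 was highest and lowest. Other megakaryocyte markers were mixed between replicates 3 and 1: Gp9 went the same way (18.9 and 10.8 CPM) and Pf4 the opposite way (12.9 and 21.3 CPM). The part of megakaryocyte-lineage RNA in the Itgb3 spread was not tested.

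Itgb5, which forms the alpha v beta 5 receptor, was the 1 member whose libraries did not overlap between genotypes on both diets. It was at 34.3, 28.4 and 32.9 CPM in Fancd2-/- KSL cells on oxymetholone, against 51.7, 51.4 and 45.5 CPM in wild-type KSL cells on oxymetholone. On placebo it was at 30.6, 45.3 and 29.1 CPM in Fancd2-/- cells, against 61.0, 55.3 and 50.8 CPM in wild-type cells. All 6 Fancd2-/- libraries, the highest of them Fancd2-/- placebo replicate 2, lay below all 6 wild-type libraries, as they did for 2.23% of the 11973 genes with a mean of at least 1 CPM. On each diet alone Itgb5 did not pass the threshold of an adjusted p under 0.05: the log2 difference was -0.63 ± 0.15 on oxymetholone, with an edgeR adjusted p of 0.212, and -0.64 ± 0.15 on placebo, with 0.0583. Among the placebo fits with 1 library left out it passed only without Fancd2-/- replicate 2 (-0.83, edgeR adjusted p of 0.0357). That replicate is the Fancd2-/- library closest to the wild-type ones, so leaving it out widens the difference.

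The genotype difference averaged over both diets, a comparison added after these values were seen, was -0.64 ± 0.11 on the log2 scale for Itgb5, with an edgeR adjusted p of 0.00680. Itgb5 was the 1 member of 8 called in that comparison, in which 3.71% of 13259 genes were called, and its adjusted p stayed between 0.00345 and 0.0257 when any 1 library was left out. With the counts of both libraries of a pair summed, which leaves 3 Fancd2-/- against 3 wild-type sums, the difference was -0.61 with an edgeR adjusted p of 0.0595, which missed the threshold. Markers moved with the genotype in the same libraries: the summed level of 12 megakaryocyte markers, of which Gp6 had 0 counts, was 401 to 614 CPM in Fancd2-/- and 734 to 922 CPM in wild-type KSL cells, that of 15 KSL markers 3686 to 4686 CPM against 5119 to 5461 CPM, and that of 10 endothelial markers 423 to 479 CPM against 458 to 573 CPM. The part of these markers in the Itgb5 difference was not tested. The other 7 genes had averaged log2 differences between -0.29 and 2.08 and edgeR adjusted p of 0.261 or more.

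By edgeR 0 of 8 members passed between genotypes on either diet alone, where 0.128% of genes were called on oxymetholone and 1.28% on placebo. At an unadjusted p under 0.05 there were 1 member on oxymetholone (Itgb5) and 2 on placebo (Itgb5 and Spp1). DESeq2 called Itgb5 on both diets (adjusted p of 0.0192 on oxymetholone and 0.00539 on placebo), and limma voom called it on placebo (0.0402). Libraries of the genotypes did not overlap for 2 members on oxymetholone (Cd44 and Itgb5), beside 11.9% of all genes, and for 2 on placebo (Itgb3 and Itgb5), beside 25.4%. The median log2 difference of the 7 receptor genes was -0.043 on oxymetholone and -0.30 on placebo, and that of all genes 0.0063 and -0.012.

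Oxymetholone changed no member detectably in KSL cells. By edgeR 0 of 8 genes were called in Fancd2-/- cells and 0 of 8 in wild-type cells, where 0% of 13259 genes were called in each (903 and 356 genes at an unadjusted p under 0.05). DESeq2 called 0 genes in Fancd2-/- and 4 in wild-type cells, limma voom 0 and 100, and none of them was a member. At an unadjusted p under 0.05 the count of members was 1 in Fancd2-/- cells, Itga4, and 0 in wild-type cells. The receptor genes had log2 differences of -0.13 to 0.38 in Fancd2-/- cells and of -0.15 to 0.18 in wild-type cells, with edgeR adjusted p of 0.688 or more. Itgb5 was lower on oxymetholone in 3 of 3 wild-type pairs, by -0.15 ± 0.15 on the log2 scale. For the difference of the drug effects between genotypes edgeR called 0 of 8 members and 0% of genes (458 genes, but 0 members, at an unadjusted p under 0.05), DESeq2 called 1 gene and limma voom 0.

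**Figure D3:**
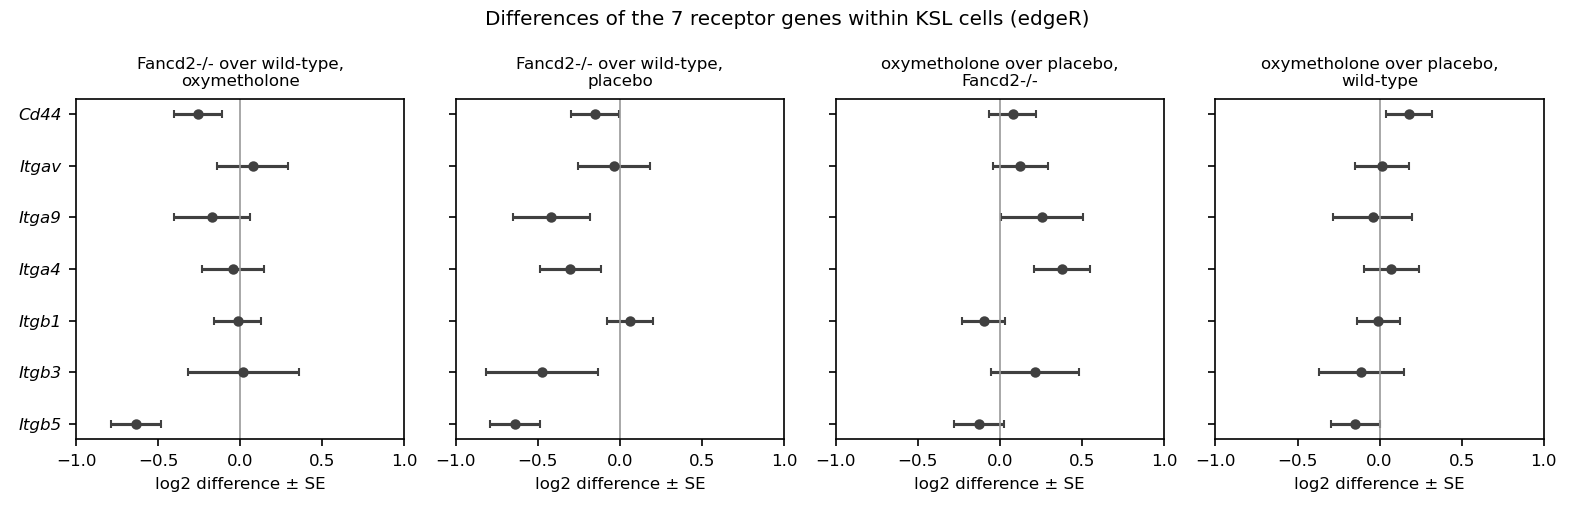
Log2 differences (edgeR, ± SE) of the 7 receptor genes in KSL cells: Fancd2-/- over wild-type on each diet (the 2 left panels) and oxymetholone over placebo in each genotype (the 2 right panels). Itgb5 lies at -0.63 and -0.64 in the genotype panels, and no point in the drug panels is farther from 0 than 0.38.

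Between populations the set split: in erythroblasts the alpha 4 beta 1 pair was higher and osteopontin with the other 5 receptor genes was lower than in wild-type KSL cells. Itga4 was at 1972, 2301 and 2249 CPM in erythroblasts on oxymetholone and 1895, 2033 and 2397 CPM on placebo, and Itgb1 at 765, 790 and 789 CPM on oxymetholone and 793, 773 and 777 CPM on placebo. Every erythroblast library exceeded every KSL library for both genes. Itga4 rose by 3.60 ± 0.12 (log2 ± SE, edgeR adjusted p of 7.83e-15) over KSL cells on placebo and by 3.57 ± 0.12 (8.52e-15) on oxymetholone. Itgb1 rose by 1.17 ± 0.08 on both diets (edgeR adjusted p of 2.49e-10 on placebo and 2.53e-10 on oxymetholone), but on the deposited matrix scaled to equal library totals it was lower in erythroblasts, at -0.20 on each diet (limma adjusted p of 0.0412 and 0.0393).

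The other receptor genes fell in erythroblasts. Cd44 was at 72.3, 78.3 and 72.2 CPM in erythroblasts on oxymetholone and 66.1, 71.7 and 83.7 CPM on placebo. Itgb5 was at 3.68, 2.22 and 3.42 CPM in erythroblasts on oxymetholone and 3.94, 3.73 and 1.84 CPM on placebo. Itga9 lay at 0.369 to 2.12 CPM, Itgb3 at 0.303 to 0.789 CPM and Itgav at 0 to 0.615 CPM in the 6 erythroblast libraries, with 6 to 36 counts per group of 3. For these 5 genes no erythroblast library overlapped a KSL library, and the same was true of all 8 members, beside 83.8% of all genes. On placebo the log2 differences between erythroblasts and KSL cells were -2.49 ± 0.12 for Cd44, -4.09 ± 0.21 for Itgb5, -4.05 ± 0.23 for Itga9, -5.96 ± 0.31 for Itgb3 and -6.39 ± 0.39 for Itgav, with edgeR adjusted p of 3.53e-11 or less. On oxymetholone they were -2.67, -3.98, -5.01, -5.47 and -5.60 for the same genes in that order (edgeR adjusted p of 4.87e-11 or less).

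Osteopontin RNA was at the floor of detection in erythroblasts. Spp1 had 1 count in each of the 3 oxymetholone libraries (0.131, 0.123 and 0.132 CPM), and 0, 0 and 1 counts on placebo. Pooled over libraries that was 3 counts in erythroblasts and 1158 in wild-type KSL cells on oxymetholone, and 1 count in erythroblasts and 2007 in wild-type KSL cells on placebo. Scaled to library size, the KSL level was 55.9 times the erythroblast level on oxymetholone (95% exact interval 19.1 to 271) and 270 times on placebo (48.5 to 10686), where the intervals cover counting error only. Without wild-type placebo KSL replicate 1, left out after its level was seen, the placebo counts were 1 in erythroblasts and 785 in KSL cells, a ratio of 134 (24.0 to 5302). edgeR called the difference on both diets (adjusted p of 0.00143 on oxymetholone and 0.000251 on placebo).

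All 8 genes were called between erythroblasts and KSL cells on both diets, 2 higher and 6 lower, in a contrast that called 91.2% of 12863 genes on placebo (37.0% higher and 54.2% lower) and 90.9% on oxymetholone (36.8% and 54.1%). On the matrix of equal library totals limma called 19.6% of genes higher and 73.5% lower on placebo. Being called is therefore near the background here, and size and direction carry the description. The median log2 difference of all genes was -0.71 on both diets, against -4.05 on placebo and -3.98 on oxymetholone for the 7 receptor genes. Relative to the median of all genes on placebo, Itga4 stood at 4.32, Itgb1 at 1.88, Cd44 at -1.78, Itga9 at -3.33, Itgb5 at -3.38, Itgb3 at -5.25 and Itgav at -5.68. Itgb1 relative to the median stayed at 1.85 on placebo and 1.83 on oxymetholone in the matrix of equal library totals.

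**Figure D4:**
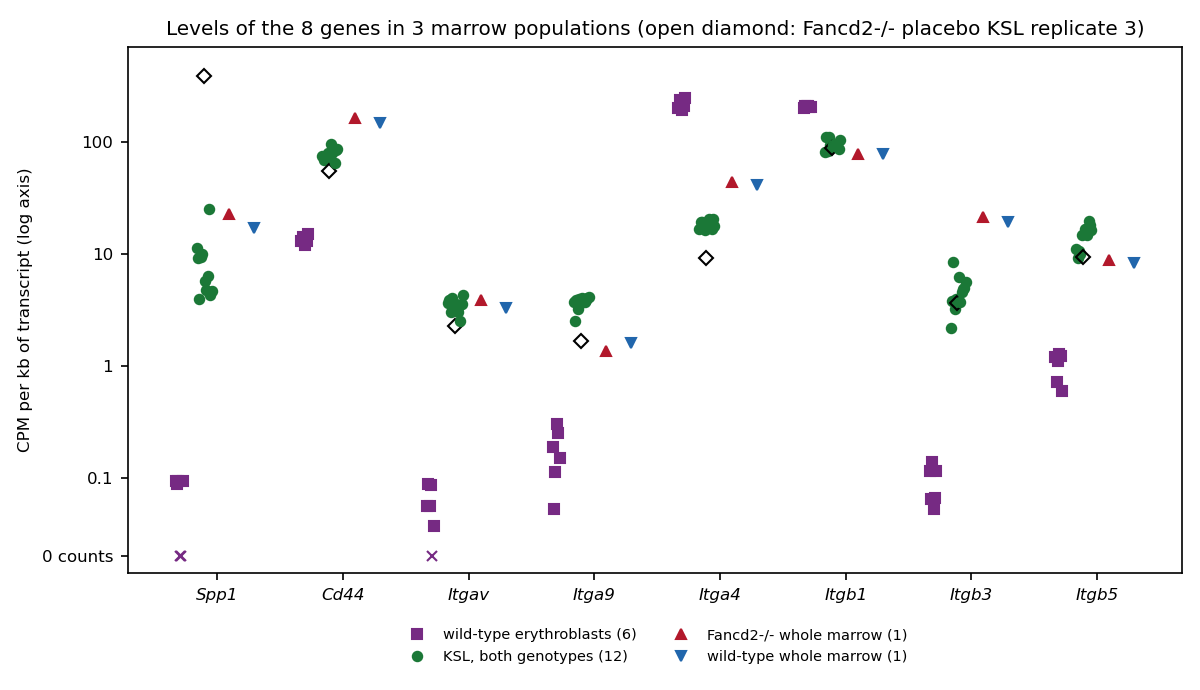
CPM per kilobase of transcript (log axis; crosses at the bottom mark libraries with 0 counts) of the 8 genes in erythroblasts, KSL cells and whole marrow, with Fancd2-/- placebo KSL replicate 3 as an open diamond. Erythroblasts lie above KSL cells for Itga4 and Itgb1, for Itgb1 on this scaling but not on equal library totals, and below them for the other 6 genes.

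Per kilobase of transcript, which allows levels of different genes to be set side by side, the order in KSL cells (median of 11 libraries, without Fancd2-/- placebo replicate 3) was Itgb1 at 93.4 CPM per kb, Cd44 at 79.3, Itga4 at 18.3, Itgb5 at 14.7, Spp1 at 6.26, Itgb3 at 4.55, Itga9 at 3.87 and Itgav at 3.52. Itgb1 (81.5 to 111 CPM per kb) and Cd44 (64.1 to 95) overlapped, and so did every later pair of neighbours, but Cd44 and Itga4 (16.2 to 20.3) did not. In erythroblasts Itga4 led at 218 CPM per kb (193 to 244), level with Itgb1 at 205 (201 to 208), followed without overlap by Cd44 at 13.1 (12 to 15.1) and Itgb5 at 1.15 (0.594 to 1.27). The other 4 genes were at 0.168 CPM per kb or less in erythroblasts.

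Among the 3 alpha and 3 beta chains followed here, the make-up therefore differed between populations. Other integrin chains of KSL cells are outside these shares, such as Itga5 (52.2 to 84.2 CPM), Itga6 (52.8 to 70.8 CPM) and Itgb2 (48.4 to 97.1 CPM). Itga4 gave 99.8% to 99.9% of the summed per-kb level of the 3 alpha chains in erythroblasts and 68.2% to 75.1% in the 12 KSL libraries. Itgb1 gave 99.4% to 99.7% of the 3 beta chains in erythroblasts and 78.9% to 89.5% in KSL cells, where Itgb5 gave 7.43% to 16.6% and Itgb3 2.29% to 8.26%. The per-kb level of Itgb1 over that of Itga4 was 0.836 to 1.08 in erythroblasts and 4.21 to 5.96 in 11 KSL libraries, with 9.61 in Fancd2-/- placebo replicate 3. These are RNA levels, and they say nothing of how much of each receptor pair was at the surface.

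**Figure D5:**
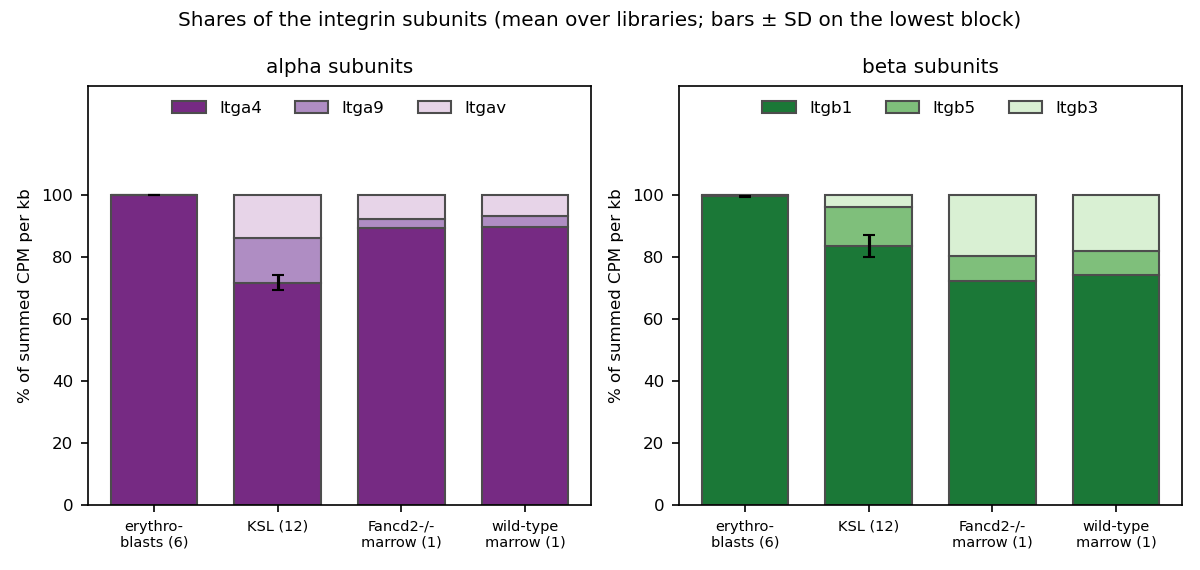
Share (%) of each alpha chain (left) and beta chain (right) in the summed CPM per kb of its class, as means over the number of libraries in brackets, with the SD drawn on the lowest block. Itga4 and Itgb1 fill nearly the whole bar in erythroblasts, and Itgb3 takes 19.7% of these beta chains in Fancd2-/- and 18.0% in wild-type whole marrow.

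Oxymetholone did not measurably change the receptors of erythroblasts. Of the 8 genes only Cd44, Itgb5, Itga4 and Itgb1 had enough counts to be tested, and edgeR called 0 of these 4 and 0% of 9694 genes (123 genes, but 0 members, at an unadjusted p under 0.05), as DESeq2 and limma voom called 0. Cd44 averaged 74.3 ± 3.48 CPM on oxymetholone and 73.8 ± 8.97 CPM on placebo, and Itga4 2174 ± 177 CPM on oxymetholone and 2108 ± 259 CPM on placebo (SD, n = 3 each). The log2 differences of the 4 genes were -0.047 to 0.029, with edgeR adjusted p of 0.999. The drug effect in erythroblasts minus that in wild-type KSL cells was called for 0 of 8 members and 0.0155% of genes. Only Itga9 had an unadjusted p under 0.05 there, with a difference of -0.96 ± 0.42 on the log2 scale and an edgeR adjusted p of 1, from at most 36 counts a group in erythroblasts, and DESeq2 and limma voom called 0 members.

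In whole marrow, with 1 library of each genotype and so no test, Cd44, Itgb3 and Itga4 lay above all 12 KSL libraries in CPM. Itga9, Itgb5 and Itgb1 lay below them, and Spp1 and Itgav were within their range. Library-size factors (TMM), before the KSL average was set to 1, were 0.8325 in Fancd2-/- and 0.8345 in wild-type marrow. In KSL libraries they were 1.345 to 1.457, so on equal library totals marrow would lie lower against KSL cells. Cd44 had 48542 counts of 100 M in wild-type marrow and 16930 of 32.5 M in wild-type oxymetholone KSL replicate 1. On equal totals that marrow library would thus not exceed all 12. Both marrow libraries lay outside the KSL range for 69.0% of the 11973 genes, so 6 of 8 members is near the background. Spp1 was at 32.0 CPM in Fancd2-/- and 23.7 CPM in wild-type marrow, a ratio of 1.35 (95% exact counting interval 1.26 to 1.44). Cd44 was at 904 CPM in Fancd2-/- and 813 CPM in wild-type marrow (ratio 1.11, 1.10 to 1.13), and Itgb3 at 121 and 109 CPM (1.11, 1.07 to 1.15). Itga9 was the member with the lowest ratio, at 9.39 CPM in Fancd2-/- and 11.2 CPM in wild-type marrow (0.837, 0.749 to 0.936). No member passed 1.5-fold between the genotypes, as 0.897% of 11597 genes with at least 100 counts in both libraries did. The intervals cover counting error only, and the lower Itgb5 level of Fancd2-/- KSL cells was not seen here, with 27.1 CPM in Fancd2-/- and 25.3 CPM in wild-type marrow (1.07, 0.999 to 1.15).

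Ratios of marrow to the mean of the placebo KSL libraries used the same CPM, and all would be lower on equal library totals. Set against wild-type placebo KSL cells, wild-type marrow had 3.71 times the level of Itgb3 and 2.26 times that of Itga4. It had 1.89 times that of Cd44 and 1.5 times that of Spp1. The Spp1 ratio rests on wild-type placebo KSL replicate 1 and was 3.78 without it, and in Fancd2-/- it was 0.170 with placebo KSL replicate 3 and 2.33 without that library. Wild-type marrow had 0.947 times the wild-type placebo KSL level of Itgav, 0.827 times that of Itgb1, 0.454 times that of Itgb5 and 0.402 times that of Itga9. Markers of mature cells were high in the same libraries: 7 osteoclast markers summed to 3624 CPM in Fancd2-/- and 3443 CPM in wild-type marrow, against 10.8 to 20.7 CPM in KSL cells. Of those sums 3316 CPM in Fancd2-/- and 3169 CPM in wild-type marrow were Mmp9, which is also a neutrophil gene, while Ctsk, the osteoclast protease gene, was at 9.35 and 7.90 CPM. The 15 macrophage and monocyte markers summed to 13579 CPM in Fancd2-/- and 12332 CPM in wild-type marrow, against 262 to 391 CPM in KSL cells. The osteoclast sum of erythroblasts was 733 to 802 CPM, of which Acp5 alone gave 722 to 784 CPM, with Calcr and Tm7sf4 at 0 and Ctsk at 3.41 to 8.17 CPM. The 12 megakaryocyte markers summed to 511 CPM in Fancd2-/- and 504 CPM in wild-type marrow, and 19 stromal and osteoblast markers to 727 and 616 CPM. Their part in the marrow levels was not tested.

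Around the receptors, genes of the same pathway were read from lists of other ligands, other integrins, and adaptor and signalling proteins. Further lists held regulators of Spp1 and proteases and modifying enzymes of osteopontin, the last also with Pls3 (plastin 3), which is not an enzyme. In KSL cells 1 gene of these lists was called between genotypes on placebo, where 1.28% of all 13259 genes were called. It was Vdr, the vitamin D receptor, a known activator of Spp1 transcription, which fell by 0.76 on the log2 scale (edgeR adjusted p of 0.0218). Vdr lay at 24.3 to 33.3 CPM in Fancd2-/- and 38.0 to 53.9 CPM in wild-type KSL cells of both diets, without overlap. The same held for 2.23% of 11973 genes. The comparison averaged over both diets, added afterwards, called 3.71% of 13259 genes. In it Vdr fell by 0.60 (edgeR adjusted p of 0.00647). Of 26 tested adaptor and signalling genes 3 fell, Filip1l with a log2 difference of -0.73 and the kinase genes Src with -0.43 and Ptk2b with -0.40 (edgeR adjusted p of 0.0213, 0.0293 and 0.0360). Of 10 other integrins 1 rose, the leukocyte beta 2 gene Itgb2, by 0.42 (edgeR adjusted p of 0.0462). With the counts of each pair summed, 0 of the genes in these lists were called, and the edgeR adjusted p of these 5 genes was 0.0852 for Vdr, 0.110 for Itgb2, 0.150 for Filip1l, 0.178 for Ptk2b and 0.217 for Src. Itgb2 is also a neutrophil and macrophage gene, and the summed level of 14 neutrophil markers was 711 to 2363 CPM in Fancd2-/- and 1236 to 2055 CPM in wild-type KSL cells. None of the listed genes was called between genotypes on oxymetholone, nor with oxymetholone in either genotype.

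In erythroblasts against KSL cells on placebo the adaptors split, 9 of 25 higher and 15 lower, where 37.0% of all genes were higher and 54.2% lower. With that many genes called, the counts of the pathway lists in this contrast are descriptions and nothing is read from them. Parvb, which encodes the adaptor beta-parvin, lay at 1239 to 1494 CPM in erythroblasts and 8.04 to 13.1 CPM in KSL cells, and rose by 6.96 on the log2 scale. The integrin activator gene Tln1 (talin) rose to 1990 to 2358 CPM in erythroblasts, against 283 to 630 CPM in KSL cells, and the kinase gene Ilk rose by 2.15. Gamma-parvin (Parvg) fell by 5.05, the focal adhesion gene Zyx fell by 7.22 and the kinase gene Ptk2b fell by 5.65, so members of 1 family went opposite ways. Of the 11 other integrins tested 2 rose and 7 fell, and of 5 further RGD- or LDV-binding integrin genes 1 rose and 4 fell, the fibronectin receptor gene Itga5 to 0.373 to 1.48 CPM in erythroblasts, against 52.2 to 84.2 CPM in KSL cells. The gene that rose, Itgae, had a log2 difference of 0.84, but of -0.51 on the matrix of equal library totals (limma adjusted p of 0.0644).

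Among 7 tested genes for other ligands 2 rose in erythroblasts and 4 fell. Vcam1, the vascular ligand of alpha 4 beta 1 and also a macrophage gene, was at 28.4 to 42.2 CPM in erythroblasts, against 1.59 to 4.91 CPM in wild-type KSL cells, and 15 macrophage and monocyte markers, Vcam1 among them, summed to 186 to 310 CPM in erythroblasts, against 262 to 391 CPM in KSL cells, with 8 of 13 tested higher. Of 19 regulators of Spp1, 5 rose and 14 fell: Foxo3, a forkhead factor with a known role in red cell maturation, lay at 1374 to 1628 CPM in erythroblasts and 6.47 to 15.9 CPM in KSL cells, while Runx2, the osteoblast factor of the RUNX family, lay at 0.920 to 2.24 CPM in erythroblasts and 77.2 to 180 CPM in KSL cells. Transglutaminase 2 (Tgm2) and Mmp9, whose products act on osteopontin, were the 2 of 5 tested genes of the protease and enzyme list that rose, by 2.21 and 3.17. Mmp9 is also a neutrophil gene, and 9 of 14 neutrophil markers rose in the same contrast, Ngp by 3.98 and Camp by 3.94. Others on that list fell, with log2 differences of -6.1 for Csf3r, -5.94 for Mpo, -3.77 for Ctsg and -3.50 for Prtn3. The 14 markers summed to 426 to 768 CPM in erythroblasts, against 1236 to 2055 CPM in wild-type KSL cells. On the matrix of equal library totals 7 of them were called higher and 5 lower on placebo. Mmp9 lay at 2.36 to 8.02 CPM in erythroblasts and at 0.248 to 1.25 CPM in wild-type KSL cells, and the part of neutrophil RNA in it was not tested. The 4 neighbours of Spp1 in its gene cluster (Ibsp, Mepe, Dmp1 and Dspp) were too low to test but for 1, which was not called. On placebo the list medians were -3.70 for the ligands, -3.51 for the regulators, -2.61 for the other integrins and -0.85 for the adaptors, beside -0.71 for all genes. On the matrix of equal library totals the adaptors counted 7 higher and 17 lower, the other integrins 1 and 8, the RGD- or LDV-binding integrins 0 and 4, and the regulators 2 and 15. Parvb, Tln1, Ilk, Vcam1, Foxo3, Tgm2 and Mmp9 were higher on that scale too.

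The genes closest to each receptor in pattern over the 12 KSL libraries were Nnt for Cd44 (Pearson r of 0.949), Mex3c for Itgav (0.97), Nfatc1 for Itga9 (0.975), Zmynd11 for Itga4 (0.981), Zfp607 for Itgb1 (0.891), Lpcat1 for Itgb3 (0.911) and Htra3 for Itgb5 (0.958). Without Fancd2-/- placebo replicate 3 these values were 0.874 to 0.955, the highest of them that of Htra3, and like the others they are descriptions over libraries that share groups and preparation.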

How the data were processed

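Gene expression was measured by RNA sequencing (51-base reads, TruSeq libraries) in 20 libraries. Per the labels' protocols and the submitters' processing notes, the authors mapped reads to mm9 with the Bowtie aligner and used edgeR for analysis. Versions, strand and the handling of multiply mapped reads are not stated there. The deposited table gives raw counts for 26005 RefSeq transcripts (20377 symbols). A second deposited matrix, counts scaled by the authors to equal library totals and treated here as a score, served only as an alternative.

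CPM used TMM factors over the 20 libraries, set so that those of the KSL libraries average 1, and per-kb levels used transcript lengths of the mm9 GENCODE annotation. Tests were edgeR 4.0.16 quasi-likelihood fits in R 4.3.3 (filterByExpr, robust) on all genes, with Benjamini-Hochberg adjustment over all genes tested and calls at an adjusted p under 0.05. Oxymetholone in KSL cells was tested with the pair as a block. The pairs come from the design text (libraries sorted at 1 cytometer setting), and 1 name there, absent from the labels, was matched to Fancd2-/- placebo replicate 1 by its similar name. Within pairs, deviations from group means correlated at 0.216, -0.047 and 0.274 in Fancd2-/- and 0.174, 0.402 and 0.255 in wild-type cells. Genotype is constant within a pair and was tested with group means. Erythroblasts and KSL cells were compared over 12 wild-type libraries. The fits were tested on simulated data.

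Results were recomputed with DESeq2 1.42.0, limma 3.58.1 (voom, and the scaled matrix as log2 of the score), median-of-ratios factors, the filter on low counts removed, summed transcripts, removal of the trend with length, no block, the 6 libraries of a comparison alone and each library or pair left out. The members and lists were chosen with earlier results of these data known. Named were all members, called genes of the lists (at most 4 per list and direction) and the genes closest to each member in pattern (Pearson r of log2 of CPM plus 0.1, mean of at least 1 CPM). Promoter sequences are those of RefSeq. Libraries held 10.8 M to 121 M counts, and single low counts are known only within counting error. Fancd2-/- erythroblasts were not analysed here.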

Additional observations from a re-analysis of the deposited data

How the results depend on the processing

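Of 1100 recomputed member differences 999 kept their direction and their side of the threshold, 95 changed sign, 5 gained a call and 1 lost it. All sign changes but those of Itgb1 between populations were in differences that were not called, and the gained and lost calls were all of Itgb5 between genotypes. On each diet alone edgeR called 0 members between genotypes, but Itgb5 was called by DESeq2 on oxymetholone and, on placebo, by DESeq2, limma voom, limma on the scaled matrix and edgeR without Fancd2-/- placebo replicate 2. Averaged over diets its call was lost with pair sums, which leave 3 units a genotype. Without the pair block the log2 difference of Spp1 with oxymetholone in Fancd2-/- KSL cells was -4.14, and edgeR called 0 genes, as with it. The causes of these shifts were not tested. Spp1, Itgav, Itgb3 and Itga9 had too few counts in erythroblasts for the drug to be tested there.

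Values that changed sign, or counts that moved by over 1.5 times, are given by comparison as log2 differences of the named gene or as numbers of calls. For oxymetholone in Fancd2-/- KSL cells (0 gene calls as reported), the fit without the low-count filter gave 16 gene calls, that with summed transcripts 1 gene call and that with the length trend removed -0.070 for Cd44 and -0.072 for Itgav. Leave-one-out values there were 0 to 12 gene calls (fewest without pair Fancd2-/- replicate 3), -0.28 to 0.067 for Itgb1, -0.26 to 0.14 for Itgb5, -3.53 to 0.086 for Spp1, -0.051 to 0.21 for Cd44, -0.26 to 0.56 for Itgb3 and -0.20 to 0.71 for Itga9. For oxymetholone in wild-type KSL cells (0 gene calls as reported), the fit with median-of-ratios factors gave 1 gene call and 0.0047 for Itgb1, that without the low-count filter 1 gene call and 0.0075 for Itgb1, that by DESeq2 4 gene calls and 0.0047 for Itgb1 and that by limma voom 100 gene calls and -0.12 for Itgav. For oxymetholone in wild-type KSL cells further, the fit by limma on the scaled matrix gave 1 gene call and -0.0025 for Itgav, that with summed transcripts 0.0044 for Itgb1, that without the block -0.015 for Itgav and that with only the 6 libraries compared 1 gene call. Leaving out 1 library or pair there gave -1.01 to 0.28 for Spp1, -0.027 to 0.31 for Cd44, -0.24 to 0.18 for Itgav, -0.35 to 0.056 for Itgb3, -0.10 to 0.020 for Itga9 and -0.052 to 0.067 for Itgb1. For the difference of the drug effects between genotypes (0 gene calls as reported), the fit by DESeq2 gave 1 gene call, that by limma voom -0.066 for Itgb5, that with summed transcripts 1 gene call and that with the length trend removed -0.082 for Itgav and -0.027 for Itgb5. Each library or pair left out in turn gave -0.13 to 0.27 for Itgb5, -0.29 to 0.058 for Itgb1, -0.24 to 0.093 for Cd44, -2.99 to 0.62 for Spp1, -0.048 to 0.35 for Itgav, -0.17 to 0.66 for Itgb3, -0.17 to 0.73 for Itga9 and -0.0094 to 0.56 for Itga4. For Fancd2-/- against wild-type KSL cells on oxymetholone (17 gene calls as reported), the fit by DESeq2 gave 1 member call and 86 gene calls, that by limma voom 44 gene calls and -0.48 for Itgb3, that by limma on the scaled matrix -0.20 for Itgb3 and that with the length trend removed 0.0079 for Itga4 and 0.018 for Itgb1. Leaving out 1 library or pair there gave 2 to 8 gene calls (fewest without wild-type oxymetholone KSL replicate 2, most without Fancd2-/- oxymetholone replicate 1), -0.073 to 0.019 for Itga4, -0.17 to 0.078 for Itgb1, -0.27 to 0.0059 for Itga9 and -0.65 to 0.35 for Itgb3. For Fancd2-/- against wild-type KSL cells on placebo (170 gene calls as reported), the fit by DESeq2 gave 1 member call and 815 gene calls, that by limma voom 1 member call, 1412 gene calls and 0.099 for Itgav, that by limma on the scaled matrix 1 member call and that with the length trend removed 0.035 for Cd44 and 0.19 for Itgav. Each library or pair left out in turn gave 0 to 1 member call (most without Fancd2-/- placebo replicate 2), 19 to 236 gene calls (fewest without wild-type placebo KSL replicate 1, most without Fancd2-/- placebo replicate 1), -0.025 to 0.17 for Itgb1, -0.20 to 5.02 for Spp1 and -0.21 to 0.18 for Itgav. For oxymetholone in erythroblasts (0 gene calls as reported), the fit by limma voom gave 0.015 for Cd44. Leaving out 1 library or pair there gave -0.074 to 0.077 for Cd44, -0.032 to 0.0023 for Itgb1, -0.34 to 0.15 for Itgb5 and -0.036 to 0.12 for Itga4. For the drug effect in erythroblasts minus that in KSL cells (2 gene calls as reported), the fit with median-of-ratios factors gave 0.011 for Itgb1, that without the low-count filter 0.0092 for Itgb1, that by DESeq2 0.0099 for Itgb1 and that by limma voom 1 gene call and 0.074 for Itga4. For the drug effect in erythroblasts minus that in KSL cells further, the fit with the length trend removed gave 0.0088 for Itgb1. With a library or pair left out the range was 0 to 2 gene calls, -0.13 to 0.057 for Itga4, -0.058 to 0.056 for Itgb1 and -0.18 to 0.31 for Itgb5. For the genotype difference averaged over both diets (492 gene calls as reported), the fit by DESeq2 gave 1120 gene calls, that by limma voom 2354 gene calls, that by limma on the scaled matrix -0.0029 for Itgav and -0.0033 for Itgb1 and that with pair sums 0 member calls and 52 gene calls. Leave-one-out values there were 132 to 993 gene calls (fewest without wild-type oxymetholone KSL replicate 2, most without Fancd2-/- oxymetholone replicate 3), -0.065 to 0.13 for Itgav and -0.049 to 0.077 for Itgb1. For erythroblasts against KSL cells on placebo (11725 gene calls as reported), the fit by limma on the scaled matrix gave -0.20 for Itgb1. For erythroblasts against KSL cells on oxymetholone (11695 gene calls as reported), the fit by limma on the scaled matrix gave -0.20 for Itgb1.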
